A study of Mus musculus with 21 samples.

Results

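The 10 genes described here are Snap25, Syt1, Gad1, Chga, Chgb, Ncam1, Rims2, Vamp2, Slc6a11 and Stx1a. In taste research they stand for the synaptic and neuroendocrine character of type III cells, the taste bud cells that detect sour stimuli. Members were found by symbol: each locus of the deposited table whose merged-annotation exons carry the symbol was read. All 10 symbols were found, each at 1 locus, so 10 of 32052 loci and 10 of 43193 gene symbols were read. A locus here is a stretch of genome in which the annotated transcripts overlap, and it can hold several genes. Snap25, Gad1, Ncam1 and Rims2 shared their locus with other symbols, and the other 6 members had a locus of their own.

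RNA was sequenced from circumvallate taste buds, the sensory organs in the trench of the large papilla at the back of the tongue, of wild-type C57BL/6J mice aged 20 to 24 weeks. There were 21 libraries, which the labels divide evenly into Ad lib (free access to food), Satiated and Hungry mice with 7 apiece, and the series title sets fed against fasted mice. Feeding state is the single difference between the groups that the labels record. The papillae were dissected in Tyrode's buffer, so nerve fibres, glia and muscle of the papilla could come along with the taste buds.

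The table lists 3 conditions, but at 0 of 32052 loci did their values differ. No level per library or per feeding state could therefore be read, and whether any member differed between the Ad lib, Satiated and Hungry mice was not tested. Every level below is the authors' mean over the 21 libraries of size-factor-scaled fragments, that is, read pairs or reads after libraries of different depth had been brought to 1 scale. Every SD is the square root of the authors' variance, which was taken around the means of 3 sets of libraries (of 6, 7 and 8) and so leaves out differences between these sets. Which libraries each set holds is not known. Compatible fragments are those that match an annotated transcript, and total fragments are all those at the locus. The means of all loci add up to 21881979 compatible and 23769781 total fragments. The labels do not say whether libraries came from separate mice. In whole tissue, fewer cells of a type and less RNA per cell cannot be told apart.

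As background, a synapse releases transmitter when a vesicle protein of the VAMP family pairs with syntaxin and SNAP-25 on the cell membrane, a bundle called the SNARE complex. Synaptotagmin, the calcium sensor, triggers the fusion, and active zone proteins such as RIM hold vesicles near calcium channels. Dense core granules of neuroendocrine cells carry chromogranins beside peptides and amines. Type III cells are the taste cells known to form such classical synapses with the gustatory nerve, while type II cells, which detect sweet, bitter and umami, release ATP through a channel and lack them. Neurons use all of these genes too.

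All 10 members passed the detection minimum, a mean of 10 compatible fragments. The same minimum was reached by 42.0% of all loci and by 67.6% of protein-coding gene symbols. Together the members' loci held 12344 compatible fragments, or 0.0564% of all. To compare genes of different length, levels were divided by the length of all exons of the locus in kb. On that scale the members ran from 797 ± 135 for Snap25 to 7.53 ± 5.71 for Slc6a11 (SD, n = 21), a 106-fold range. Their median was 147 per kb over all 10 members and 175 over the 6 at loci of 1 symbol. The 8696 detected loci of 1 symbol had a median of 134 and quartiles of 37.6 and 405. Snap25 and Vamp2 stood above the upper quartile, and Rims2 and Slc6a11 below the lower.

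**Figure D1:**
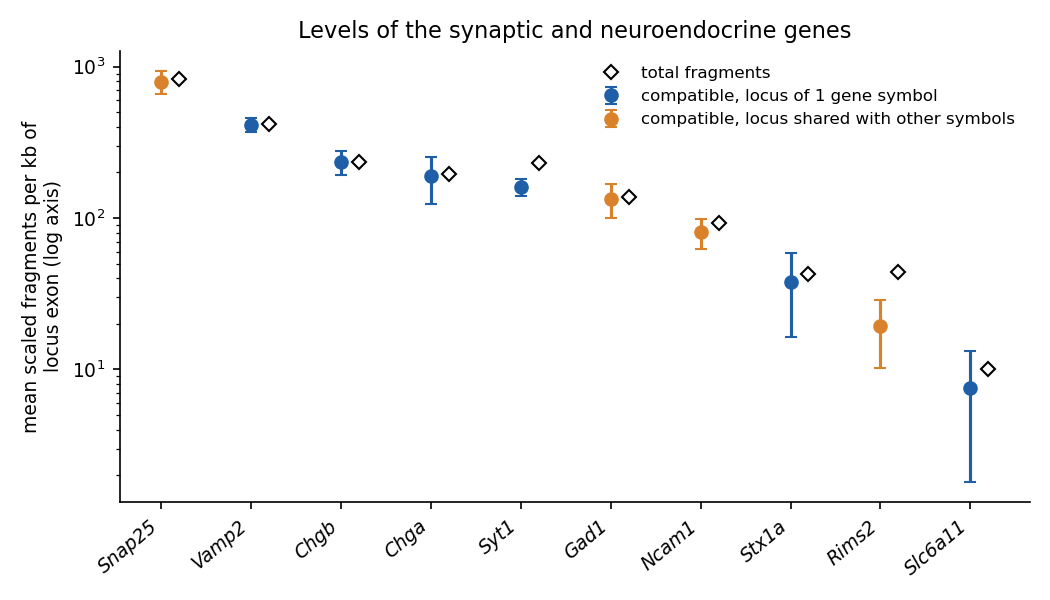
Mean scaled fragments per kb of locus exon for each member, on a log axis. Filled points are compatible fragments with the SD over 21 libraries as bars, blue for a locus of 1 symbol and orange for a shared locus, and open diamonds are total fragments. Levels fall from 797 for Snap25 to 7.53 for Slc6a11, and the diamonds lie clearly above the points for Syt1 and Rims2.

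The order of the levels per kb was Snap25, Vamp2, Chgb, Chga, Syt1, Gad1, Ncam1, Stx1a, Rims2 and Slc6a11. Neighbours were said to differ only where their means were further apart than the larger of both SDs, which held for 5 of 9 neighbouring pairs. Chgb and Chga, Chga and Syt1, Syt1 and Gad1, and Stx1a and Rims2 did not differ by that measure. Over all pairs of members, 40 of 45 did. This is a description without a test, since no level per library could be read. The genes of a library also share its size factor and its RNA.

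Of the SNARE genes among the 10 members, Snap25 had the highest level. Snap25 lies on the plus strand of chromosome 2, from 136713453 to 136782428 (GRCm38), and its locus also holds the predicted gene Gm14053. Its mean was 5790.0 ± 983 compatible fragments (SD, n = 21) of 6008 in total, and per kb it stood above 86.6% of detected loci of 1 symbol. SNAP-25 is the membrane-bound partner that contributes a pair of helices to the SNARE bundle, and its presence in taste cells is a common mark of type III cells. Its relatives were lower per kb. Snap23, the form of non-neuronal cells, had 357 ± 38.7, and Snap47 had 258 ± 45.8 at a locus shared with Jmjd4. Snap29 had 91.6 ± 11.3 at a locus of 5 symbols. Snap25 exceeded each of the 3 by more than the larger SD, and exceeded Snap23 by 2.23-fold.

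Snap25 is spliced in alternative forms that use either of 2 neighbouring exons of equal length. The upstream exon gives the form known as SNAP-25a, common in early brain and in endocrine cells, and the downstream exon gives SNAP-25b of mature neurons. The authors' merged annotation held 4 Snap25 transcripts, 3 from the reference and 1 assembled from reads. The assembled transcript had 8 exons and included the upstream exon. It shared the intron chain of a reference transcript, with other first and last exon ends, and it does not show how abundant either form was. Both exons are printed because they separate the forms; each has 118 nt, and capitals mark the 31 positions at which they differ (plus strand; chr2:136769743-136769860 upstream and chr2:136770057-136770174 downstream).
Snap25 upstream exon: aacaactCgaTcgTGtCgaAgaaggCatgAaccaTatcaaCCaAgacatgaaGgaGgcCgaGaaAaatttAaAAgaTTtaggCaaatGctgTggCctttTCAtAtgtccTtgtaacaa
Snap25 downstream exon: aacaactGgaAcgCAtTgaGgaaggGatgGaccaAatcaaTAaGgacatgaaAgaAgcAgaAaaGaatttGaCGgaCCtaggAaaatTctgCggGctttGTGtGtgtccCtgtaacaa

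Vamp2 encodes synaptobrevin, the vesicle-side SNARE of synapses, on the plus strand of chromosome 11 from 69088490 to 69092384, where no other symbol overlaps. It had 1580.6 ± 161 compatible fragments (SD, n = 21) of 1585 in total, and 415 ± 42.3 per kb. It had the steadiest level of the 10 members, with a coefficient of variation (CV, the SD over the mean) of 0.102. Vamp8, a SNARE of secretory granules in exocrine cells and mast cells, was higher per kb at 541 ± 102. Vamp7, a SNARE of late endosomes, was higher as well at 1681 ± 261, at a locus shared with CAAA01165726.1. The other 4 relatives lay below Vamp2 by more than the larger SD, from Vamp4 at 243 ± 33.3 to Vamp5 at 12.0 ± 8.93. Vamp1, the synaptobrevin typical of motor nerve endings, had 15.4 ± 3.29 per kb at a locus of 4 symbols. Of the 2 assembled Vamp2 transcripts, 1 kept the first intron in a 737-nt exon, and the other followed a reference chain with a last exon of 2409 nt.

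Stx1a, the membrane syntaxin of synapses, was far lower than its SNARE partners. It lies alone on the plus strand of chromosome 5 from 135023482 to 135051100 and had 104 ± 58.6 compatible fragments (SD, n = 21) of 117 in total, or 37.7 ± 21.3 per kb. Snap25 was thus 21.1-fold and Vamp2 11.0-fold higher per kb. Stx3, the syntaxin of ribbon synapses and of the apical membrane of epithelia, had 488 ± 88.9 per kb and exceeded Stx1a by 12.9-fold. Stx11 at 37.3 ± 22.0 and Stx2 at 26.8 ± 11.9 were within the larger SD of Stx1a. The 2 assembled Stx1a transcripts lengthened an inner exon, from 138 to 262 nt in the one and from 194 to 394 nt in the other.

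Syt1, the calcium sensor of fast release, spans the minus strand of chromosome 10 from 108497650 to 109010982 with no other symbol. It had 1338 ± 180 compatible fragments (SD, n = 21) of 1924 in total. The compatible share was thus 69.6%, beside 95.0% at the median detected locus and 60.8% at the 10th percentile. Per kb this is 161 ± 21.6 in compatible and 231 in total fragments. Of 16 other synaptotagmins, Syt5 was higher at 272 ± 56.1 and the other 15 were lower by more than the larger SD. Next below came Syt4 at 106 ± 33.4 (shared with Gm26658) and Syt11 at 99.6 ± 20.5, neither of which is known to bind calcium as Syt1 does. Syt7, the sensor of slow release, had 28.2 ± 7.33 per kb at a locus shared with Gm26859, and Syt2, a fast sensor of the hindbrain and motor endings, had 10.5 ± 2.69 at a locus of 6 symbols. Syt10 was listed at 0 compatible fragments beside 89.7 in total. The assembled Syt1 transcript was short: 6 exons and 4099 nt, against 12 exons and 4820 nt for the nearest reference transcript. It began in a 414-nt exon inside the gene, 374 kb from the first annotated base, that a shorter reference transcript also begins with.

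Rims2 encodes RIM2, an active zone scaffold that binds RAB3 on vesicles, on the plus strand of chromosome 15 from 39198332 to 39681940, together with Gm25381. It had 100 ± 47.8 compatible fragments (SD, n = 21) of 228 in total. Its compatible share of 44.0% was the lowest of the members, and 6.06% of detected loci had a share as low or lower. Most fragments at the locus thus matched no annotated transcript, and the level per kb was 19.4 ± 9.27 in compatible and 44.2 in total fragments. Where in the locus the other fragments fell was not tested. Rims3, a short RIM without the RAB3-binding part, was level with it at 19.5 ± 7.0 per kb. Rims4 had 1.16 ± 1.23, and Rims1, the main RIM of brain synapses, had 0.0395 compatible fragments of 6.54 in total. No Rims2 transcript was assembled beyond the 2 of the reference.

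The granule proteins Chgb and Chga were close to each other. Chgb (chromosome 2, plus strand, 132781278 to 132795079) had 645 ± 119 compatible fragments (SD, n = 21) and Chga (chromosome 12, plus strand, 102554969 to 102565027) had 356 ± 124, each alone at its locus. Per kb Chgb had 235 ± 43.4 and Chga 189 ± 65.7, a difference of 46.3 that is under the larger SD. Chromogranins are the acidic cargo around which dense core granules condense. Of their granin relatives, Scg5, a chaperone of prohormone convertase 2, was higher than both at 834 ± 151 per kb. Scg3 had 232 ± 180 at a locus shared with RP23-429A10.2, with a CV of 0.779. Scg2 was lower at 67.6 ± 22.3, and Vgf, a granin-like gene of neurons and endocrine cells, had 1.69 ± 2.57 compatible fragments. Each chromogranin had 1 transcript, that of the reference.

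Gad1, which makes GABA from glutamate, could not be read alone. Its locus on the plus strand of chromosome 2, from 70489940 to 70602014, also holds Erich2, Erich2os, Gad1os and RP23-118N13.1. The locus had 1676 ± 431 compatible fragments (SD, n = 21) of 1724 in total and 134 ± 34.5 per kb of its 12490 nt of exon. Divided by the exons of Gad1's own reference transcripts the same fragments give 219 per kb, and by its longest transcript 466, so its place in the order rests on the length used. Gad2, the second GABA-making enzyme, which sits on vesicles in nerve endings, had 5707 ± 985 compatible fragments and 956 ± 165 per kb at a locus shared with Gm23636. It exceeded the Gad1 locus by 7.12-fold per kb, and it also exceeded the value of 466.

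Gad1 had 3 assembled transcripts among 11, and all 3 were new combinations of annotated introns. Both with the most exons (19 and 18) began at 70553072, which is 9057 nt before the RefSeq start of Gad1. The third had 16 exons and began at 70563442. The transcript of 19 exons contained an optional 80-nt exon that 1 reference transcript of the merged annotation also holds. In GENCODE M21 annotated coding sequences end in this exon. The exon is printed because it separates the full-length enzyme from truncated forms, known from embryonic tissue; capitals mark the annotated stop codon (chr2:70584420-70584499, plus strand).
Gad1 optional exon: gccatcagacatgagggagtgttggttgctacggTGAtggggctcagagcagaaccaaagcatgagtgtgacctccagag

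Slc6a11 encodes GAT3, a carrier that takes up GABA and is known mainly from astrocytes. It was the lowest member, with 30.6 ± 23.2 compatible fragments (SD, n = 21) of 40.9 in total and 7.53 ± 5.71 per kb (chromosome 6, plus strand, 114131241 to 114249886, no other symbol). Its CV of 0.759 was the highest of the members. Related carriers were low too: Slc6a13 had 13.9 ± 9.82 per kb at a locus shared with Gm24855, and Slc6a12 had 11.8 ± 17.4, both within the larger SD of Slc6a11.

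Ncam1, the neural cell adhesion molecule, joins cells to each other and to nerve fibres and has long served as an antibody marker of type III cells. It lies on the minus strand of chromosome 9 from 49502136 to 49798925 with Gm11149 and had 723 ± 158 compatible fragments (SD, n = 21) of 830.2 in total. Per kb this is 80.4 ± 17.6, against 11.7 ± 11.3 for Ncam2, the form of olfactory neurons, at a locus shared with Gm26023. Ncam1 was 6.86-fold higher than Ncam2, beyond the larger SD.

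NCAM is known in several forms that differ in their membrane end and in small optional exons. The merged annotation held 9 Ncam1 transcripts, 6 from the reference and 3 assembled. The first assembled transcript had 22 exons, among them a 30-nt exon, known as VASE, a 15-nt and a 3-nt exon, and an 801-nt exon known from the longest, transmembrane form. The second had 18 exons with none of these. The third ended at 49517278 in the 305-nt exon known from the form with a lipid anchor, and held exons of 15, 48 and 42 nt, which are known as the muscle-specific domain. Introns of all 3 were annotated, while the combination of the 15-, 48- and 42-nt exons with the lipid-anchor end was found in no reference transcript of the annotation. Assembly from short fragments can join exons of different molecules, and how abundant each form was is not given. The 4 optional exons longer than 3 nt are printed 5′ to 3′ on the minus strand, in the order in which they are transcribed, with no part singled out (chr9:49550540-49550569, chr9:49541888-49541902, chr9:49536990-49537037 and chr9:49535209-49535250).
Ncam1 exon of 30 nt: gcatcgtggactcgaccagagaagcaagag
Ncam1 exon of 15 nt: atagccctcctccac
Ncam1 exon of 48 nt: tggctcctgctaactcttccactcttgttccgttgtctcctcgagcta
Ncam1 exon of 42 nt: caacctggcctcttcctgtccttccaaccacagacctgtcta

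**Figure D2:**
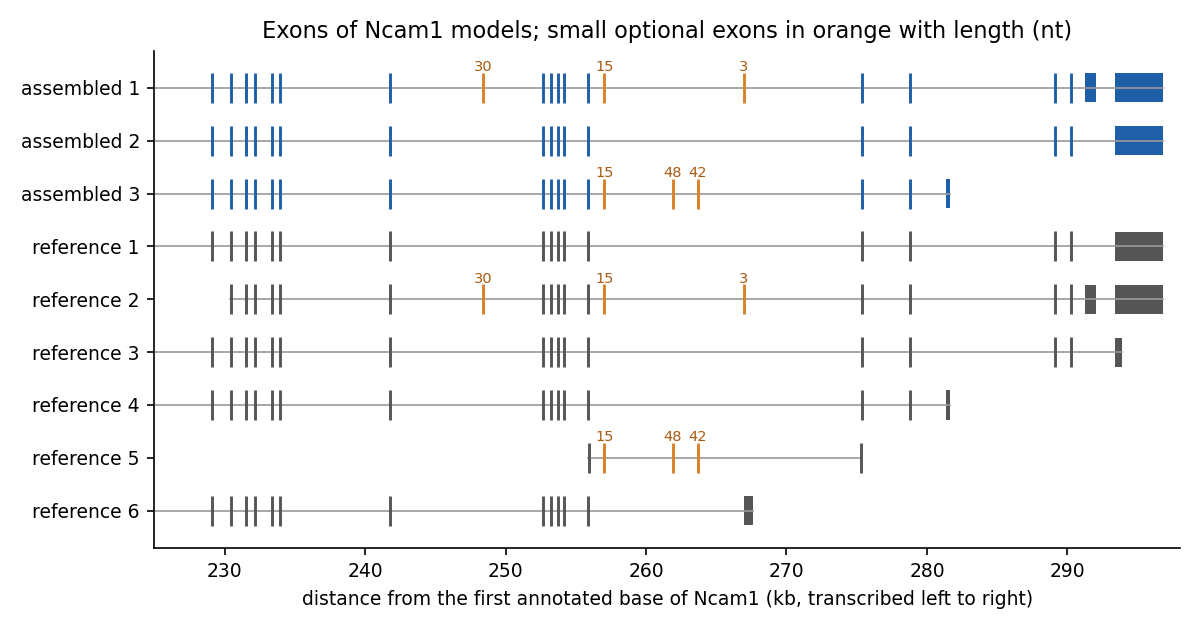
Exons of the 9 Ncam1 transcripts of the merged annotation by distance from the first annotated base in kb, transcribed left to right; the 5′ part of the gene is left out. Blue marks the 3 assembled and grey the 6 reference transcripts, boxes are exons over 300 nt, and orange marks the optional exons with their length in nt. The first assembled transcript holds exons of 30, 15 and 3 nt, the third those of 15, 48 and 42 nt, and the second none of them.

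Over all members the merged annotation held 50 transcripts, 38 from the reference and 12 assembled. Of the 12, 3 had the intron chain of a reference transcript and 9 combined annotated introns anew. None of their 74 introns, counted once per gene, was absent from the reference. Chga, Chgb, Rims2 and Slc6a11 had no assembled transcript. A reference transcript stands in the annotation whether or not it was expressed.

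The members differed in how much they varied between libraries. Their CVs ran from 0.102 for Vamp2 to 0.759 for Slc6a11, with a median of 0.238, beside 0.231 over the 13467 detected loci (quartiles 0.151 and 0.449). Counting alone would give an SD of the square root of the mean; the members' SDs exceeded it by 4.05-fold (Vamp2) to 12.9-fold (Snap25). The authors' table also gives a fitted variance, that expected at a locus of the same level. The variance was above the fitted one at 4 of 10 members, namely Gad1, Stx1a, Chga and Snap25, beside 26.1% of detected loci. Against a running median of the variance over loci of like mean, 7 members lay above, beside 49.9% of detected loci. Ncam1, Rims2 and Slc6a11 changed sides, with log2 ratios of -0.34, -0.27 and -0.08 to the fitted variance and of 0.36, 0.20 and 0.14 to the running median. The members' median log2 ratio of variance to fitted variance was -0.18 beside -0.65 over detected loci. Gad1's ratio was the highest at 0.87, at the locus of 5 symbols, followed by Stx1a at 0.26, Chga at 0.22 and Snap25 at 0.17. Vamp2 at -1.84, Syt1 at -1.16 and Chgb at -0.95 were the steadiest for their level. Chga and Chgb, so close in level, thus stood on different sides of the fitted variance. Which libraries were high or low cannot be read, and no test accompanies these counts.

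**Figure D3:**
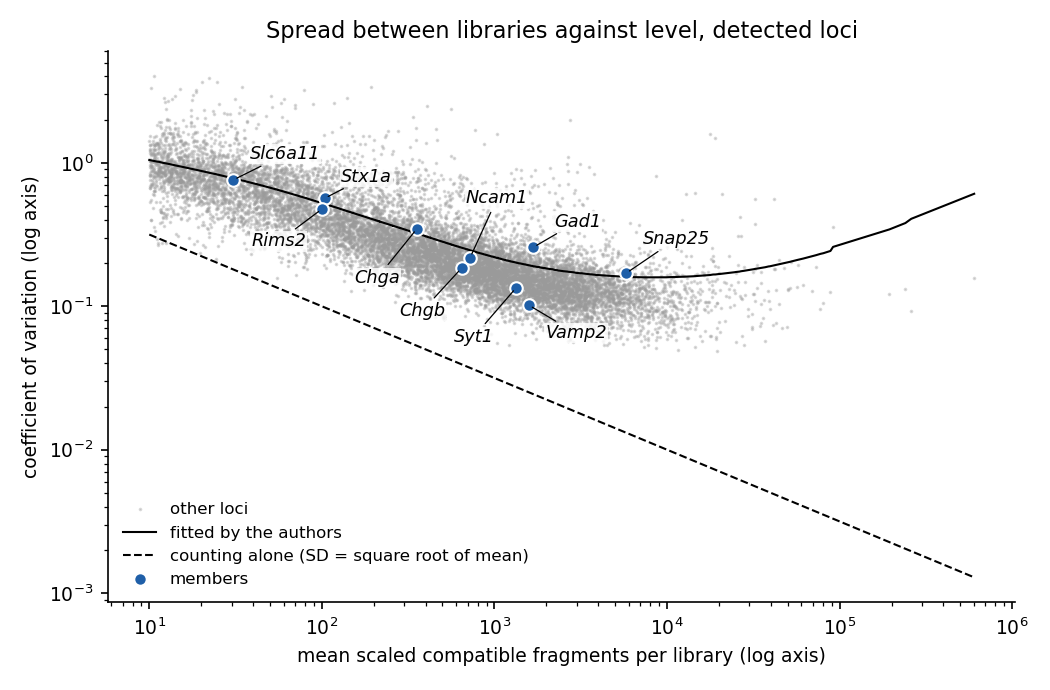
CV between libraries against the mean of scaled compatible fragments for the 13467 detected loci (grey), both on log axes; members are in blue. The solid line is the authors' fitted spread and the dashed line the spread from counting alone. Gad1 lies above the fitted line, Vamp2 and Syt1 below it, and all 10 members above the counting line.

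**Figure D4:**
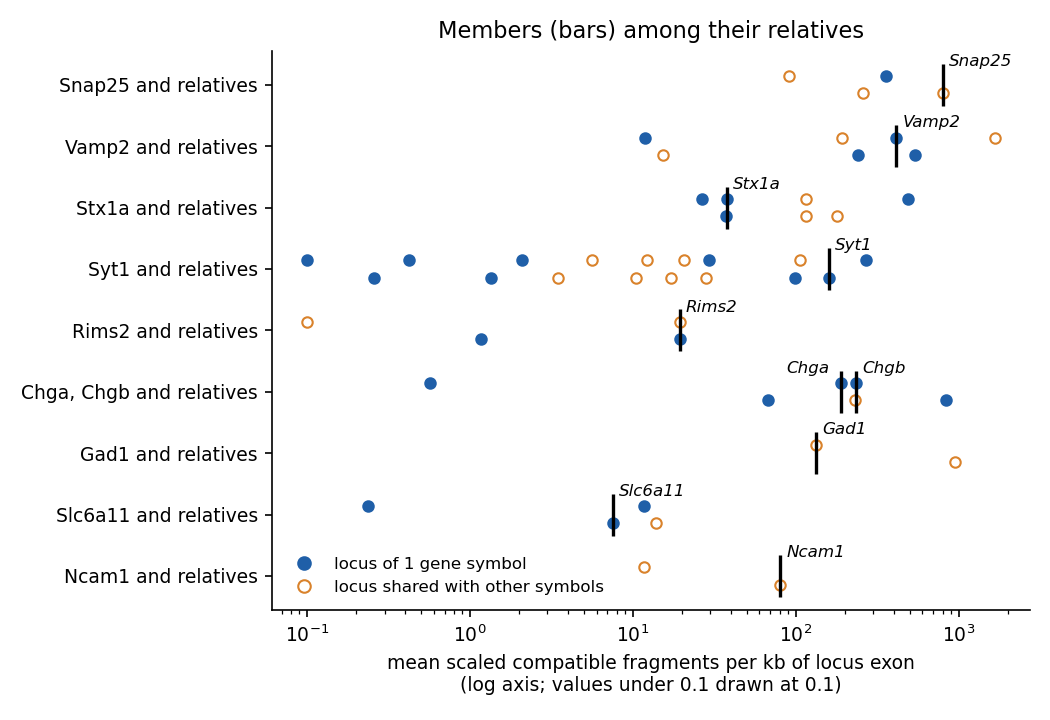
Compatible fragments per kb of locus exon (log axis) for each member, marked by a black bar, and its relatives. Filled points are loci of 1 symbol and open points shared loci. Snap25 is the highest of its row, Gad1 lies below Gad2, and Stx1a lies below Stx3.

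Genes of related pathways and cell types were read as lists, and 67.6% of protein-coding gene symbols reached the same minimum. A count near that share says nothing particular about a list, and detection at a shared locus can come from another gene there. Of 21 listed helpers of SNARE fusion 20 were found in the annotation and 18 detected. Of these, 8 had a locus of their own, with a median of 299 per kb. Napa (747 ± 80.8 per kb) and Napg (393 ± 57.4) encode SNAP adaptors that take spent SNARE bundles apart, Stxbp2 (467 ± 52.2) a syntaxin-binding protein of non-neuronal secretion, and Txlna (336 ± 42.5) a syntaxin-binding protein, taxilin. The complexins are named with their values having been seen. Cplx2 had 203 ± 36.6 and Cplx1 71.5 ± 19.5 per kb, each at a locus of its own. Cplx3 and Cplx4, complexins of ribbon synapses, were listed at 0 compatible fragments.

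Active zone genes were detected at 22 of 25 symbols, 12 at loci of their own with a median of 53.9 per kb. The highest of these 12 were Rab27b at 417 ± 95.5 per kb, a GTPase of secretory vesicles, Sytl1 at 300 ± 62.0, which binds RAB27, Rab3d at 261 ± 87.5, a GTPase of exocrine granules, and the scaffold Ppfia1 at 186 ± 19.2. Each exceeded Rims2 by more than the larger SD. Lower among the 12, and named with their values having been seen, were Ppfia4 at 25.6 ± 7.86 per kb and Erc1 at 23.6 ± 3.82. Rimbp2 at 2.46 ± 3.50 and Erc2 at 1.75 ± 1.86 per kb were just above the minimum, with 10.5 and 10.6 compatible fragments. Their totals were 152 and 340, so the compatible shares were 6.90% and 3.13%, and these levels would be far higher by total fragments.

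Synaptic vesicle genes were detected at 19 of 23 symbols, 5 at loci of their own with a median of 44.5 per kb. Sypl, the widely expressed relative of synaptophysin, led them at 933 ± 74.8 per kb, followed by Scamp5 at 103 ± 26.1, Slc17a9, the vesicular ATP carrier, at 44.5 ± 20.7, and the vesicle glycoprotein gene Sv2a at 33.4 ± 13.0. At Slc17a9 compatible fragments were 12.8% of the total, 142 of 1109. Dense core granule genes were detected at 13 of 16 symbols, 5 at loci of their own with a median of 345 per kb. Cpe, an enzyme that trims prohormones, had 6572 ± 705 per kb, the prohormone convertase gene Pcsk1 had 1157 ± 234, and the granule maturation genes Rundc3a and Ccdc186 had 345 ± 52.3 and 256 ± 42.0. Cpe and Pcsk1 thus stood above Chga and Chgb by more than the larger SD.

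GABA system genes were detected at 9 of 24 symbols, 5 at loci of their own with a median of 115 per kb. With a minimum of 1 compatible fragment in place of 10 the count was 16, and by total fragments it was 13. Gabarap, named for a receptor but best known for autophagy, had 1982 ± 243 per kb. The receptor subunit gene Gabrp had 115 ± 73.9, and Abat, which breaks GABA down, had 16.2 ± 7.41. Slc32a1, the vesicular GABA carrier, was listed at 0 in compatible and in total fragments; it is named with its value having been seen. Synaptic adhesion genes were detected at 23 of 32 symbols, 5 at loci of their own with a median of 95.6 per kb. Nrcam had 200 ± 34.0 per kb, Cadm4 146 ± 23.7, Cadm1 95.6 ± 17.1 and Nlgn2, the neuroligin of inhibitory synapses, 18.2 ± 6.06. Nrcam and Cadm4 exceeded Ncam1 by more than the larger SD, and Cadm1 did not.

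Markers of the cells that could carry the members were read on the same scale, with the minimum that 67.6% of protein-coding gene symbols reached. Type III markers were detected at 8 of 8 measured symbols: per kb the proton channel gene Otop1 had 3990.1 ± 462, Pkd2l1 1377 ± 269, the carbonic anhydrase gene Car4 554 ± 121, Insm1 404 ± 44.7 and Kcnk16 74.1 ± 31.1. Type II markers were detected at 8 of 8 symbols, with the taste G protein gene Gnat3 at 19066 ± 2494, Pou2f3 at 1526 ± 158, Plcb2 at 429 ± 70.3 and Calhm1 at 41.3 ± 18.5 per kb. Compatible fragments were a small share of total fragments at Plcb2 (18.9%), Calhm1 (15.6%) and Kcnk16 (23.1%), so these levels would be several times higher by total fragments. Of 3 type I markers 2 were detected, Kcnj1 at 2425 ± 425 per kb being the one at a locus of its own. Markers of all 3 taste cell types were thus present, and no member's level can be assigned to one type.

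Nerve, glia and muscle markers were detected in part, beside 67.6% of protein-coding gene symbols at the same minimum. Of 20 measured neuron markers 14 were detected, and their loci, other genes at them included, summed to 14597 compatible fragments. Per kb Calca, a sensory peptide gene, had 1663 ± 350, Elavl4 195 ± 39.3, the ATP receptor gene P2rx2 of gustatory nerves 85.2 ± 20.4, the neurofilament gene Nefh 31.2 ± 11.4, Elavl3 6.00 ± 3.26 and Stmn2 3.94 ± 2.71. Prph, a filament gene of peripheral neurons, had 5.70 ± 10.5 compatible fragments and Gap43, a gene of growing nerve fibres, 1.12 ± 2.70; both are named with their values having been seen. Of 12 Schwann cell markers 9 were detected, 3 at loci of their own, among them the myelin gene Pmp22 at 229 ± 51.0 per kb. Skeletal muscle nerve endings were represented by 2 detected markers of 7 measured, Chrna1 at 11.8 ± 5.90 per kb being the one at its own locus, and Musk, also named after its value was seen, was listed at 0 compatible fragments. Of 11 gut neuroendocrine markers 5 were detected, with Calcb at 42.9 ± 41.2 and Chrnb2 at 16.1 ± 5.64 per kb at loci of their own. At shared loci Ghrl had 99.5 ± 29.7, Neurog3 69.4 ± 21.4 and Neurod1 1.36 ± 1.15 per kb. The other 6 were below the minimum, with 3 of them (Sst, Gcg and Nts) at 0 compatible fragments. The genes at shared loci or at 0 are named with their values having been seen. The sums cannot be followed across libraries, and the part of nerve fibres in the members' levels was not tested.

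**Figure D5:**
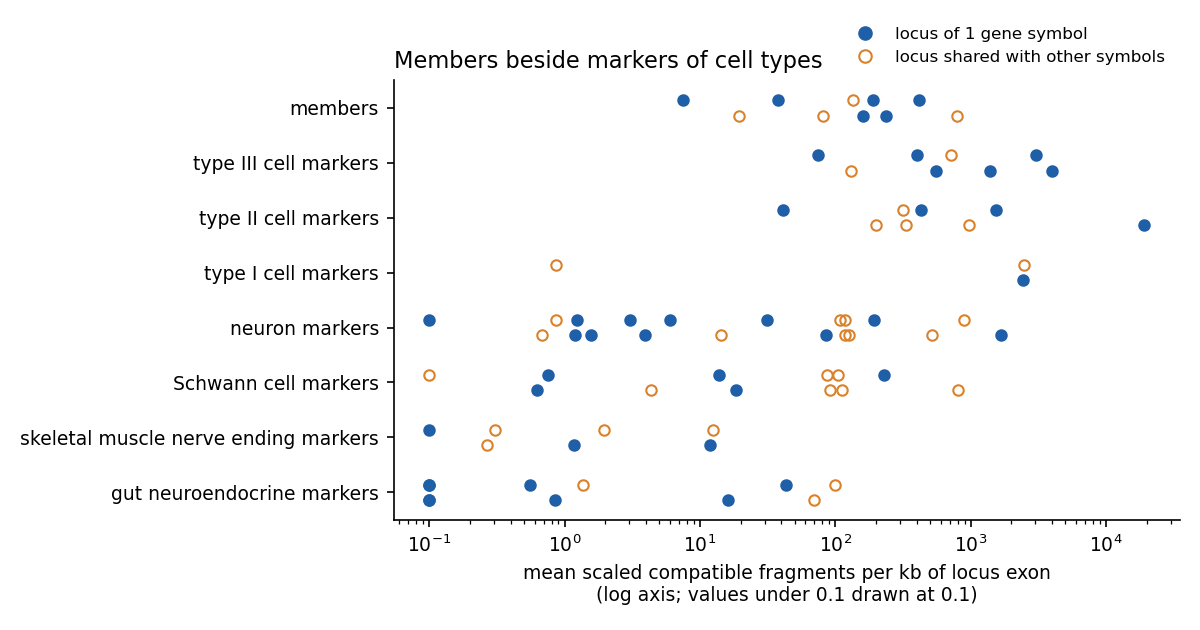
Compatible fragments per kb of locus exon (log axis) for the members and for each list of cell type markers. Filled points are loci of 1 symbol and open points shared loci; values under 0.1 are drawn at 0.1. Markers of type III and type II cells lie in the range of the members or above it, while neuron markers spread from under 0.1 to 1663.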

How the data were processed

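Whole circumvallate taste bud RNA was copied with oligo(dT) primers and sequenced, per the labels' protocols. Trimmomatic, FastQC, TopHat, Bowtie2, Cufflinks and Cuffdiff on GRCm38.p4 are named in the submitters' processing notes, without versions, and their settings were not given in any source read. Deposited were the transcripts merged over libraries and the output of Cuffdiff's variance model. The latter gives a signal made by the authors, the mean of scaled compatible and of total fragments per locus, each with a variance, and a fitted variance for the former. Loci with fragments in 1 library (454, 667 and 474 loci, relative tolerance 0.0001) had the variances that sets of 6, 7 and 8 libraries and division by 21 would give, while the labels give 7 per group.

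Genes were placed on loci by merged-annotation exons. Levels were divided by the union of exons of the locus; oligo(dT) priming can make coverage uneven along a transcript, which these values cannot show. Exon sequences and stop codons came from GENCODE M21 on GRCm38, and the Gad1 start from RefSeq (GRCm38.p6). Named were all members and their relatives, the 4 highest genes per kb at loci of 1 symbol in each pathway list, and up to 6 such genes per marker list. Stxbp3, Aadc, Tubb3 and Acta1 were not found under these symbols. Some genes that this rule names are not reported here. Members and lists were chosen with earlier results of these data known. The computing steps were tested on simulated data; the software was Python 3.11.15 with pandas 2.3.3, numpy 2.4.6 and, for plots, matplotlib 3.10.9.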

Additional observations from a re-analysis of the deposited data

How the results depend on the processing

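Counting loci of 1 gene symbol alone left 6 of the 10 detected members and 14 of their 34 detected relatives. It left 8 of 18 detected SNARE regulators, 12 of 22 active zone and 5 of 19 synaptic vesicle genes. Of dense core granule genes it left 5 of 13, of GABA genes 5 of 9 and of adhesion genes 5 of 23. Among all 13467 detected loci 8696 held 1 symbol, so the restriction also removes many loci outside these lists. With a minimum of 1 compatible fragment the GABA count was 16. With a running median of the variance over 201 loci of like mean in place of the fitted variance, 7 members lay above it, beside 49.9% of detected loci. Of the other 27 counts and medians under an alternative, each stayed within 1.5 times its main value. Of single members' levels per kb under another length or total fragments, 8 moved by more than the SD and 22 did not. The members' order per kb was kept in 43 of 45 pairs by total fragments, where Syt1 passed Chga and Rims2 passed Stx1a, in 40 by the longest transcript and in 43 by reference exons. No paired analysis was possible because the deposited values are not given per library, and no library could be left out in turn for the same reason. Members with under 105 fragments (Stx1a, Rims2, Slc6a11) had CVs of 0.477 to 0.759, which limits what their levels can show.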
